A study of Mus musculus with 12 samples.

Results

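Hippocampal gene expression was compared between aged Tg2576 mice given CM-414 for 4 weeks and aged Tg2576 mice given SAHA together with tadalafil over the same period. The comparison holds 6 of the 12 arrays of the series, 3 for CM-414 and 3 for SAHA and tadalafil, chosen by the treatment in their labels. The other arrays came from 3 mice given CM-695 and 3 given vehicle. They entered the fit only through the estimate of the spread, except where vehicle or CM-695 levels are set beside a result. The labels give the strain as B6.Cg-Tg(APPswe)E1-2Dbo/J, while the methods describe Tg2576 on a C57BL/6/SJL background, and all mice were aged 16 to 18 months. Tg2576 mice are female here and carry a Swedish-mutant form of the human amyloid precursor protein under a hamster prion promoter, so every group carries the transgene, and no wild-type group was analysed here. The paper describes behavioural testing (fear conditioning and the water maze) within the treatment for mice given CM-695 or vehicle. It does not say whether the mice compared here were tested. The hippocampus was taken 24 h after treatment ended. Doses of CM-414, SAHA and tadalafil are not given in the sources used here, so the groups are compared as labelled and not at matched doses. Vehicle is called saline in the labels, while the methods describe saline with solvents.

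CM-414 is a single molecule made to inhibit histone deacetylases (HDACs, mainly HDAC6 and less strongly the class I enzymes) and phosphodiesterase 5 (PDE5). SAHA (vorinostat) is an HDAC inhibitor and tadalafil a PDE5 inhibitor, so that the combination covers the same pair of target families with separate drugs. HDACs take acetyl groups off lysines of histones, and HDAC6 does so on tubulin and other proteins of the cytoplasm. PDE5 breaks down cyclic GMP, a second messenger that acts through protein kinase G and, further on, the transcription factor CREB. The comparison asks which hippocampal genes differ between 1 molecule with both activities and the 2 drugs given together.

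RNA from each hippocampus was hybridized to a Mouse Gene 2.0 ST array, on which short probes along a gene are grouped into probe sets, and levels are log2 intensities normalized by RMA. A difference of 1 on this scale is a doubling, and levels of different genes are not compared. Of 41345 probe sets, 35309 lay over a log2 value of 4 on all 6 arrays and were tested. Across the probe sets, any pair of the 6 arrays correlated between 0.977 and 0.988. The leading principal component of all 12 arrays held 23.9% of their variance. SAHA and tadalafil replicate 1 (score 21.2), vehicle replicate 2 (38.1) and CM-695 replicate 3 (35.1) were set off at its high end. The remaining 9 were not a tight cluster but spread from -25.4 to 2.6. The lowest score was that of replicate 2 given SAHA and tadalafil, so this treatment group alone ran from -25.4 to 21.2. Markers of the dentate gyrus (Prox1, C1ql2), CA1 (Fibcd1, Wfs1) and CA3 (Grik4, Iyd) were present on every array, between 6.23 for Iyd and 10.03 for Wfs1, as the hippocampus label requires.

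No single gene separated CM-414 from SAHA and tadalafil after adjustment for multiple testing. In limma, none of the 35309 reached an adjusted p of 0.05, a count of 0, and the smallest adjusted p was 0.485, while 2285 had an unadjusted p under 0.05, where 1765.5 would be called by chance. At an unadjusted p under 0.01, the threshold used below for "called", there were 418 probe sets, 1.18% of those tested and 353.1 by chance. Of them 245 were higher with CM-414 (0.694% of those tested) and 173 lower (0.49%). The median size of the called differences was 0.42 on the log2 scale, with a range from 0.22 to 1.99, and 10 exceeded 1. Once every array was centred by median, 199 were higher and 194 lower, and the median fold change of all probe sets was 0.013, beside 0.020 before. Taking 1 probe set per gene, the brightest, 206 of 20059 genes were called (1.03%), 143 higher (0.713%) and 63 lower (0.314%). These shares, and the 59.4% of genes with a positive fold change, are the baseline for the list counts below. Each named gene that was called has an adjusted p of 0.766 from limma unless another is given. An exact permutation test of 3 against 3 arrays could not go below p = 0.1.

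**Figure D1:**
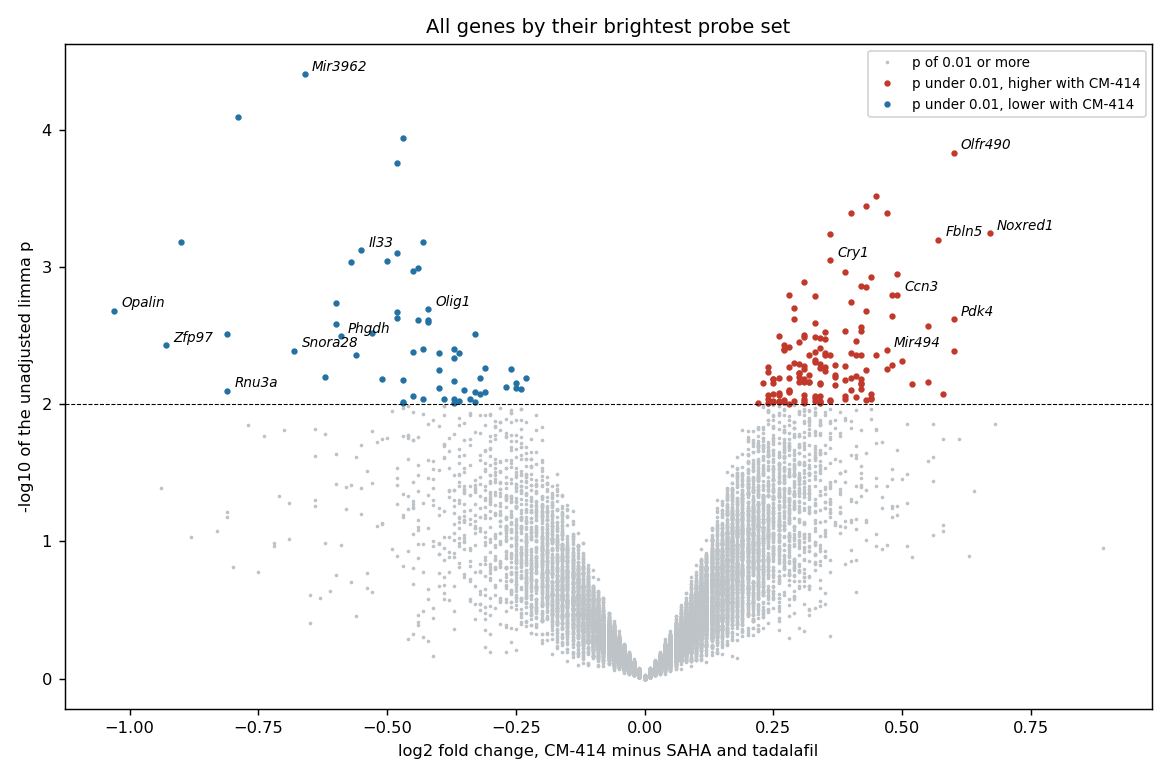
Each point is 1 of 20059 genes, with the log2 fold change (CM-414 minus SAHA and tadalafil) on the horizontal axis and -log10 of the unadjusted limma p on the vertical axis. The 143 red points above the dashed line are genes higher with CM-414 and the 63 blue points genes lower, and Mir3962 lies highest.

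The glucocorticoid-induced genes Pdk4 and Sgk1 were both higher with CM-414. Glucocorticoids, the stress steroids of the adrenal cortex, act on the hippocampus through receptors that enter the nucleus and switch on a well-described set of genes. Pdk4, the kinase that shuts off pyruvate dehydrogenase, read 8.12, 8.22 and 8.70 on the CM-414 arrays, against 7.89, 7.78 and 7.58 on the SAHA and tadalafil arrays. All 3 CM-414 arrays lay above the others, with replicate 3 the highest. Its log2 fold change was 0.60 (standard error 0.15), or 1.51-fold. Sgk1, a kinase of ion transport and neuronal excitability, read 9.42, 9.60 and 9.55 with CM-414 and 8.97, 9.14 and 9.02 with SAHA and tadalafil. The groups did not overlap, and the log2 fold change was 0.48 (standard error 0.14). The vehicle arrays lay lower still for Sgk1, at 8.78, 8.17 and 8.57. Sgk1 was not called without CM-414 replicate 2 or 3, or without SAHA and tadalafil replicate 1 or 3, and Pdk4 was not called without SAHA and tadalafil replicate 3. Relative to those shared vehicle arrays the log2 fold change of Sgk1 was 1.02 for CM-414 and 0.53 for SAHA and tadalafil, and that of Pdk4 was 0.81 and 0.21.

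Across the list of 21 glucocorticoid-induced genes, 2 were called higher and 0 lower, where 1.03% of all genes were called. The fold changes were positive for 19 of the 21, with a median of 0.19, beside a median of 0.029 and 59.4% positive over all genes. Fkbp5, a cochaperone that dampens the receptor, had 0.26 on the log2 scale (standard error 0.11). Errfi1, an inhibitor of EGF receptor signalling, had 0.27 (standard error 0.09), and Cdkn1a, the cell cycle inhibitor p21, had 0.45 (standard error 0.16). None of these passed the threshold. Tsc22d3 (GILZ), one of the best known targets of the receptor, had 0.05, and Zbtb16 had -0.12. The mean level of the list was 8.63, 8.52 and 8.79 with CM-414 and 8.56, 8.44 and 8.30 with SAHA and tadalafil. These ranges overlapped, and the vehicle arrays lay below both groups at 8.27, 8.17 and 8.29. Without SAHA and tadalafil replicate 1 the median was 0.252 and without replicate 3 it was 0.106, below the value of 0.193 with all arrays by more than 1.5 times.

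The receptor often binds inverted pairs of the half-site AGAACA. In the 250 bases before the start sites in RefSeq (GRCm38.p6), this half-site, searched on both strands, occurred in 4 of the 19 list genes with a listed promoter (21.1%), beside 18.2% of all genes. Among the 6 start sites listed for Sgk1, the fifth held 3 matches, of which 2 face each other. It is shown because it holds the most matches of the Sgk1 starts, a choice made after the search, with the half-sites in capitals (chr10:21993640-21993889, plus strand).
Sgk1, start 5: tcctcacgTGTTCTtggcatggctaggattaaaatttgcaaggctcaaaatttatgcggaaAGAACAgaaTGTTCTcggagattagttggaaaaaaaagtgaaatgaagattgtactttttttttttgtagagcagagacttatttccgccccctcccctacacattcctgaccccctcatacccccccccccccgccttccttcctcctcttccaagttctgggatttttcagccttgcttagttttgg
The Pdk4 window of the same length held 0 matches. Matching letters are a description of the sequence and were not tested for binding.

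Hspa5, of the genes of protein folding in the endoplasmic reticulum (ER), was higher with CM-414, and most of its list had positive fold changes. When unfolded proteins build up in the ER, the sensors Atf6, Ern1 and Eif2ak3 raise chaperones and disulfide isomerases, of which Hspa5 (BiP) is the most abundant chaperone. Hspa5 read 9.11, 8.93 and 8.96 with CM-414 and 8.62, 8.55 and 8.71 with SAHA and tadalafil. The groups did not overlap, and the log2 fold change was 0.37 (standard error 0.11). Vehicle, at 9.08, 8.75 and 8.80, had a mean between theirs, so that the fold change from vehicle was 0.12 for CM-414 and -0.25 for SAHA and tadalafil. The call ended after centring the arrays on their medians, and without any single array other than SAHA and tadalafil replicate 3.

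Of 36 genes measured in the unfolded protein response list, 1 was called and 28 had positive fold changes (median 0.10). In 16 of the 36 (44.4%) every CM-414 array lay above every SAHA and tadalafil array and in 0 the reverse, where 12.4% of all genes separated upwards and 17.2% in either direction. Besides Hspa5 these included the cochaperone Dnajb11 (0.30, standard error 0.10), the ER-associated degradation factor Derl2 (0.32, standard error 0.13), the translocon-associated Ssr1 (0.31, standard error 0.12) and the disulfide isomerases Pdia3 (0.24) and Pdia6 (0.25). The sensors themselves had log2 fold changes of 0.04 for Atf6, 0.06 for Ern1 and -0.06 for Eif2ak3, and Ddit3 (CHOP), the death-linked factor of the pathway, had 0.04. The list's mean level was 8.76, 8.68 and 8.74 with CM-414 and 8.57, 8.63 and 8.62 with SAHA and tadalafil. These means did not overlap between the groups, while vehicle spread across both, from 8.54 to 8.69. Its median ranged from 0.088 to 0.143 over the alternatives tried.

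The ER stress element, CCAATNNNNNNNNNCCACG on either strand, occurred within 250 bases before a start in 10 of 32 list genes with a listed promoter (31.2%), beside 0.13% of all genes. Fold changes were positive for 9 of these 10 (median 0.14) and for 15 of the 22 without the motif (median 0.08). The Hspa5 window carries 1 match, 65 bases before the start, and is shown with the fixed letters of the motif in capitals because Hspa5 was the called member (chr2:34771840-34772089, plus strand, RefSeq, GRCm38.p6).
Hspa5: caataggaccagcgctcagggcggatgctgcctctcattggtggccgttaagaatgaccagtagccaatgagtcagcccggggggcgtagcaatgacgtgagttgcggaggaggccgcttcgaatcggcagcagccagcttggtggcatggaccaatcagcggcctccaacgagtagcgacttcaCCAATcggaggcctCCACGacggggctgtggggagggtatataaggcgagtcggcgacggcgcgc

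Most other lists of protein quality control had small positive medians. Among 22 heat shock genes driven by HSF1, which answers unfolded protein in the cytoplasm, 0 were called, 15 were positive and the median was 0.10. They were not uniform, since the inducible chaperone Hspa1b had 0.42 (standard error 0.17) and the small heat shock protein Cryab, abundant in oligodendrocytes, had -0.42 (standard error 0.15). Of 28 ubiquitin-conjugating enzymes, which pass ubiquitin to proteins marked for degradation, 23 were positive (median 0.11) and 1 was called. That was Ube2k, known to bind huntingtin, with 10.60, 10.46 and 10.49 on the CM-414 arrays and 10.26, 10.23 and 10.26 on the SAHA and tadalafil arrays. The log2 fold change of 0.27 (standard error 0.07) was small, the groups did not overlap, and the call was lost without CM-414 replicate 1 or any 1 of the SAHA and tadalafil arrays. Autophagy genes were positive for 26 of 35 (median 0.05), and proteasome subunits were evenly divided, 15 and 15 of 30.

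Tau and the enzymes that add or remove its phosphates had a small positive median. Of 22 measured, 18 had positive fold changes (median 0.10) and 0 were called. The stress kinase Mapk8 (JNK1) had 0.31 (standard error 0.12), the catalytic subunits Ppp2cb and Ppp2ca of the main tau phosphatase had 0.22 and 0.17, and Gsk3b had 0.13. Mapt itself, which encodes tau, had -0.07. In 9 of the 22 (40.9%) the groups separated upwards, against 12.4% of all genes.

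**Figure D2:**
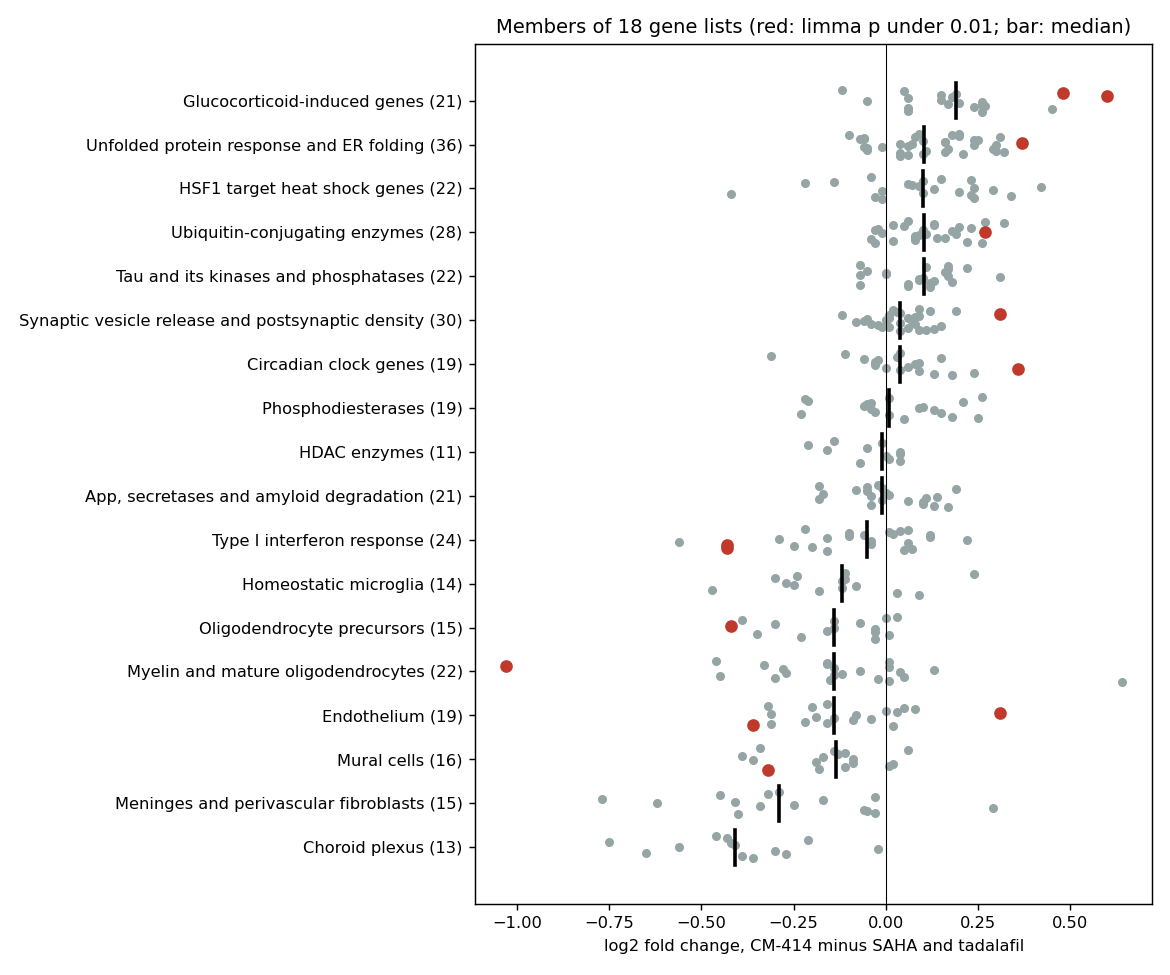
Each point is the log2 fold change (CM-414 minus SAHA and tadalafil) of 1 gene, in rows for 18 gene lists with the number measured in parentheses. Red points have an unadjusted limma p under 0.01 and black bars are medians, which run from 0.19 for glucocorticoid-induced genes down to -0.41 for choroid plexus genes.

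Cry1, a repressor of the circadian clock, was higher with CM-414 and was one of the most stable calls. It read 7.89, 7.85 and 7.73 with CM-414, against 7.56, 7.45 and 7.37 with SAHA and tadalafil and 7.53, 7.57 and 7.47 with vehicle. Every CM-414 array lay above these. The CM-695 arrays, at 7.68, 7.62 and 7.57, lay below every CM-414 array and above every SAHA and tadalafil array. Between CM-414 and SAHA and tadalafil the log2 fold change was 0.36 (standard error 0.08), and Cry1 was called under each of the 17 alternatives. It was the 1 called member of 19 clock genes, of which 13 were positive (median 0.04). The clock genes Per1 and Arntl had 0.15 and 0.18, while Dbp and Nr1d1, strong outputs of the clock, had -0.03 and -0.02. The clock acts through the E-box CACGTG, present within 250 bases before a start in 5 of 18 clock genes with a listed promoter (27.8%) and in 6.86% of all genes. The Cry1 window is shown with its single E-box, which reads the same on both strands, in capitals (chr10:85185055-85185304, minus strand, RefSeq, GRCm38.p6).
Cry1: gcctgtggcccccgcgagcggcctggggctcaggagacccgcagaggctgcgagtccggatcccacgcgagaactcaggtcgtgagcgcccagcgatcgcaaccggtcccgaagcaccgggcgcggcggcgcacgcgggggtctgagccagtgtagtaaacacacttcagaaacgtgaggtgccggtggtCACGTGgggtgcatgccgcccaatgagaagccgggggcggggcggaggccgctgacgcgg

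Of the neuronal lists, 1 of 9 CA1 pyramidal genes and 1 of 30 synaptic genes were called, beside 1.03% of all genes. The lists of dentate granule cells (21 measured), CA2 and CA3 (12), interneurons (16), neuropeptides (23) and glutamate and GABA receptors (31) had 0 called. In the CA1 list 6 genes were positive and 3 negative. Ccn3 (Nov), a secreted matricellular protein that marks CA1 and subicular pyramidal cells, read 10.30, 10.30 and 10.25 with CM-414 and 9.99, 9.62 and 9.77 with SAHA and tadalafil. The CM-414 arrays were nearly identical and all higher, for a log2 fold change of 0.49 (standard error 0.12). Sv2b, a glycoprotein of synaptic vesicles, had 11.63, 11.59 and 11.52 against 11.30, 11.15 and 11.35, a log2 fold change of 0.31 (standard error 0.09). This call was lost without CM-414 replicate 1 or 2, or SAHA and tadalafil replicate 1 or 2. Among 30 synaptic genes, 23 were positive but the median was only 0.04. Immediate early and CREB target genes, which answer to calcium and cyclic nucleotides, split into 16 positive and 15 negative of 31, with a median of 0.01 and 0 called. Arc had 0.23, Fos -0.27 and Bdnf -0.06.

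The remaining large rises at moderate signal joined metabolic, nuclear and extracellular genes. Fbln5, an elastic fibre protein, had 8.08, 7.86 and 7.97 with CM-414 and 7.48, 7.49 and 7.20 with SAHA and tadalafil, a log2 fold change of 0.57 (standard error 0.12). Its vehicle arrays, at 7.44, 7.37 and 7.15, overlapped those of SAHA and tadalafil. Noxred1, named for an oxidoreductase domain, had the steepest rise among genes represented by their brightest probe set, with 6.97, 6.75 and 6.50 against 6.03, 6.02 and 6.15 (log2 fold change 0.67, standard error 0.14). Both genes were called in every alternative, as was Ccdc185 (0.49). Fam107a (DRR1), an actin-binding protein induced by stress and glucocorticoids, had 11.19, 10.78 and 11.17 against 10.66, 10.39 and 10.68, a log2 fold change of 0.47 (standard error 0.14), not called without CM-414 replicate 1 or 3 or SAHA and tadalafil replicate 2. Mettl7a1 (0.55), Cdkn2aip (0.52), which binds the ARF tumour suppressor, and Kansl2 (0.50), a subunit of a histone acetyltransferase complex, also rose. All 3 of these calls were lost without CM-414 replicate 1 or SAHA and tadalafil replicate 1, and each also without 1 or more of the other arrays. Unkl had the largest rise of all at this signal, 0.81, but on the dimmer of its 2 probe sets, and the brighter had 0.00.

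**Figure D3:**
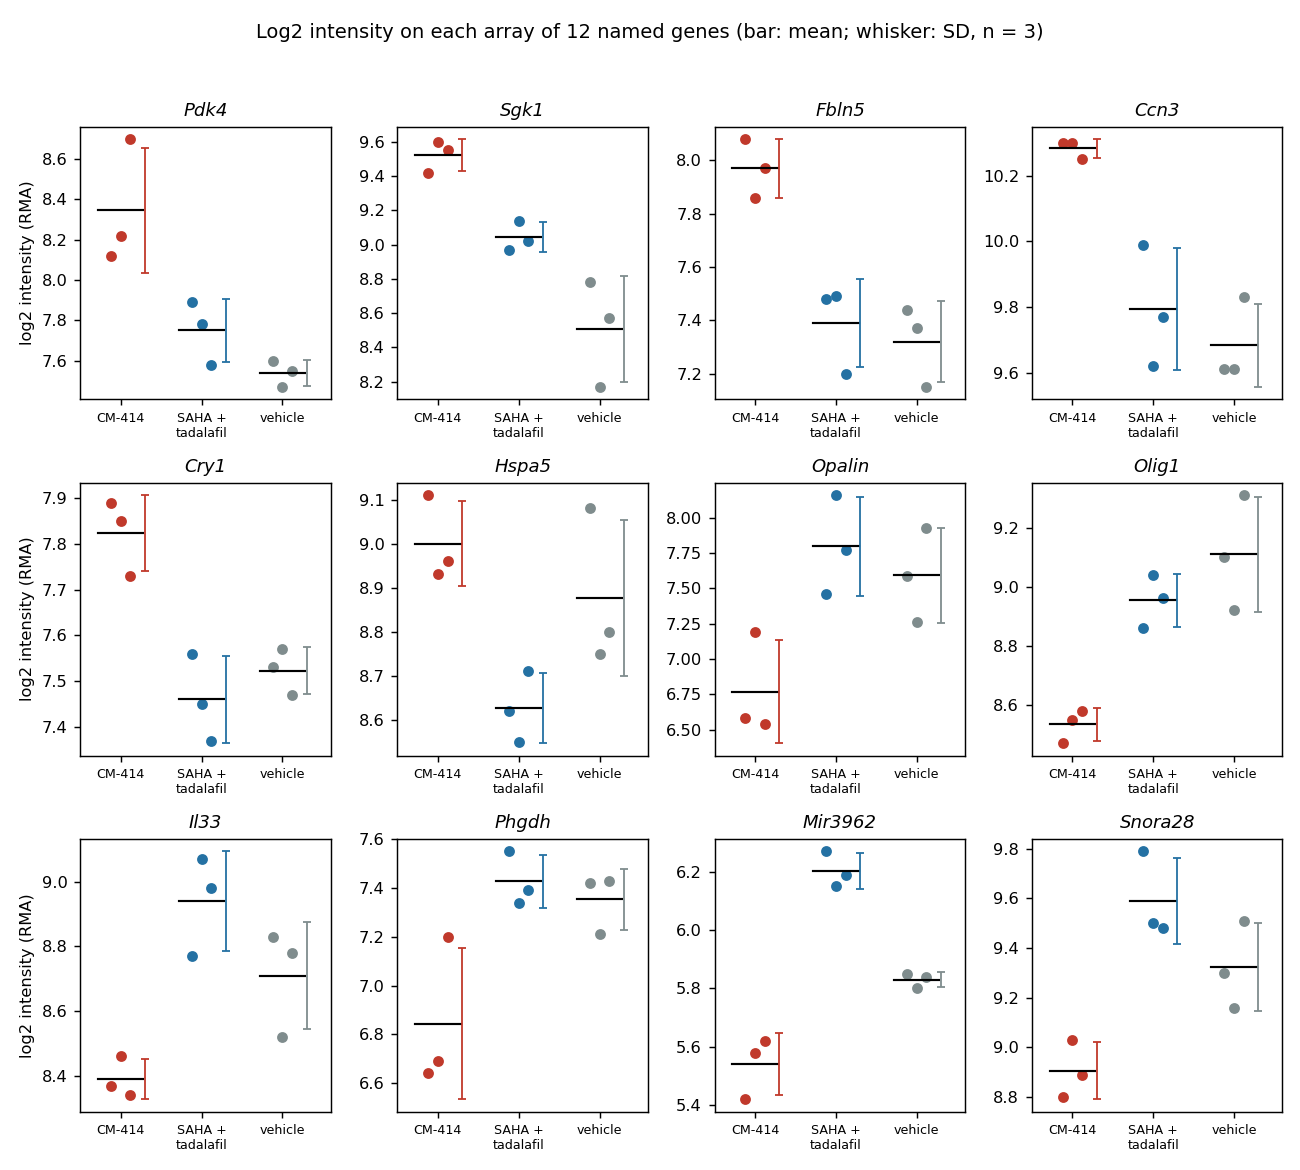
Log2 intensity (vertical axis) on each array for 12 named genes, with CM-414 left, SAHA and tadalafil in the middle and vehicle right, bars at the mean and whiskers of 1 SD (n = 3). In every panel the 3 CM-414 points lie on 1 side of the 3 SAHA and tadalafil points, as the naming rule requires, while vehicle lies nearer one or the other.

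Opalin and Olig1, genes of the oligodendrocyte lineage, were lower with CM-414, and most of their lists had negative fold changes. Oligodendrocytes wrap axons in myelin and arise from precursors that persist in the adult brain. Opalin, a membrane protein of mature oligodendrocytes, read 6.58, 7.19 and 6.54 with CM-414 and 7.46, 8.16 and 7.77 with SAHA and tadalafil. Every CM-414 array was lower, for a log2 fold change of -1.03 (standard error 0.26). Vehicle, at 7.59, 7.26 and 7.93, had a mean nearer SAHA and tadalafil, but its replicate 2 lay below every array of that group. Olig1, a transcription factor of the lineage, read 8.47, 8.55 and 8.58 with CM-414, against 8.86, 9.04 and 8.96 with SAHA and tadalafil. This was a log2 fold change of -0.42 (standard error 0.10), with tight replicates in both groups.

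Among 22 genes of myelin and mature oligodendrocytes, 1 was called lower, 15 were negative and the median was -0.14. Over all genes 0.314% were called lower and 59.4% were positive. The members of the myelin list did not move as a block. The enzymes of myelin lipid synthesis Ugt8a and Fa2h had -0.46 (standard error 0.16) and -0.45 (standard error 0.15), but the main myelin proteins Mbp and Mobp had -0.07 and 0.13, and Apod, a lipocalin of oligodendrocytes and other cells, had 0.64 (standard error 0.28). Of 15 precursor genes, 13 were negative (median -0.14) and 1 was called. Sox10 had -0.39 (standard error 0.14), whereas Pdgfra and Cspg4, the markers by which precursors are usually identified, had -0.14 and 0.01. The precursor list averaged 7.66, 7.64 and 7.69 with CM-414 and 7.76, 7.89 and 7.80 with SAHA and tadalafil, with no overlap. Opalin was not called without CM-414 replicate 1 or 3 or SAHA and tadalafil replicate 2, and Olig1 was not called without the last of these. The myelin median was -0.074 without SAHA and tadalafil replicate 2, and the precursor median -0.085 without CM-414 replicate 1. In RNA from whole tissue, fewer cells of a type and less RNA per cell cannot be told apart.

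Vascular and border cell markers had mostly negative fold changes. Over all genes 1.03% were called and 59.4% had positive fold changes. Endothelial genes were negative for 13 of 19 (median -0.14), with Cdh5 (VE-cadherin) called lower (-0.36, standard error 0.11) and Mfsd2a, the lipid transporter of the blood-brain barrier, called higher (0.31, standard error 0.10). Mural cell genes were negative for 13 of 16 (median -0.13), with the potassium channel subunit Abcc9 of pericytes called (-0.32, standard error 0.10). Genes of the meninges and perivascular fibroblasts were negative for 14 of 15 (median -0.29, 0 called), and their mean level was 7.45, 7.65 and 7.87 with CM-414 against 7.95, 8.15 and 7.64 with SAHA and tadalafil. Choroid plexus genes were negative for all 13 measured (median -0.41, 0 called), but the arrays of a group differed more than the groups, at 6.80, 8.04 and 7.52 with CM-414 and 7.03, 8.17 and 8.37 with SAHA and tadalafil. The choroid plexus median was -0.776 without SAHA and tadalafil replicate 1 and -0.112 without CM-414 replicate 1. Without SAHA and tadalafil replicate 2 the medians were -0.057 for endothelium, -0.060 for mural cells and -0.141 for meninges. Other omissions made them lower, to -0.254 for mural cells without SAHA and tadalafil replicate 3 and -0.438 for meninges without CM-414 replicate 3. Thalamus and habenula markers, which report neighbouring tissue, were negative for 14 of 20 (median -0.11), with a median of 0.012 without SAHA and tadalafil replicate 2, the highest of the 6 arrays for them (7.54), and -0.206 without replicate 1 of that group. The part of these tissue differences in the other results was not tested.

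Microglial genes gave few calls, where 1.03% of all genes were called. Homeostatic microglia, the resting state of the brain's resident macrophages, had negative fold changes for 11 of 14 genes (median -0.12) and 0 calls. Fcrls had -0.47 (standard error 0.21), P2ry12 -0.25 and Tmem119 -0.11. The list averaged 7.49, 7.51 and 7.35 with CM-414, against 7.46, 7.60 and 7.70 with SAHA and tadalafil, and these overlapped. The median was -0.068 without CM-414 replicate 3, -0.187 without CM-414 replicate 2 and -0.183 without SAHA and tadalafil replicate 1. Genes of plaque-associated microglia were balanced, 17 positive and 14 negative of 31 (median 0.00), with only Timp2, a metalloproteinase inhibitor, called (0.26, standard error 0.08). Interferon-induced genes were mixed, 10 positive and 14 negative of 24, with 2 lower calls, where 0.314% of all genes were called lower. These were Ifit1, which binds viral RNA (-0.43, standard error 0.14), and the GTPase Gbp3 (-0.43, standard error 0.12). Ifit1 was not called without any 1 of the 6 arrays other than CM-414 replicate 1, and Gbp3 was not called without CM-414 replicate 1 or SAHA and tadalafil replicate 2.

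**Figure D4:**
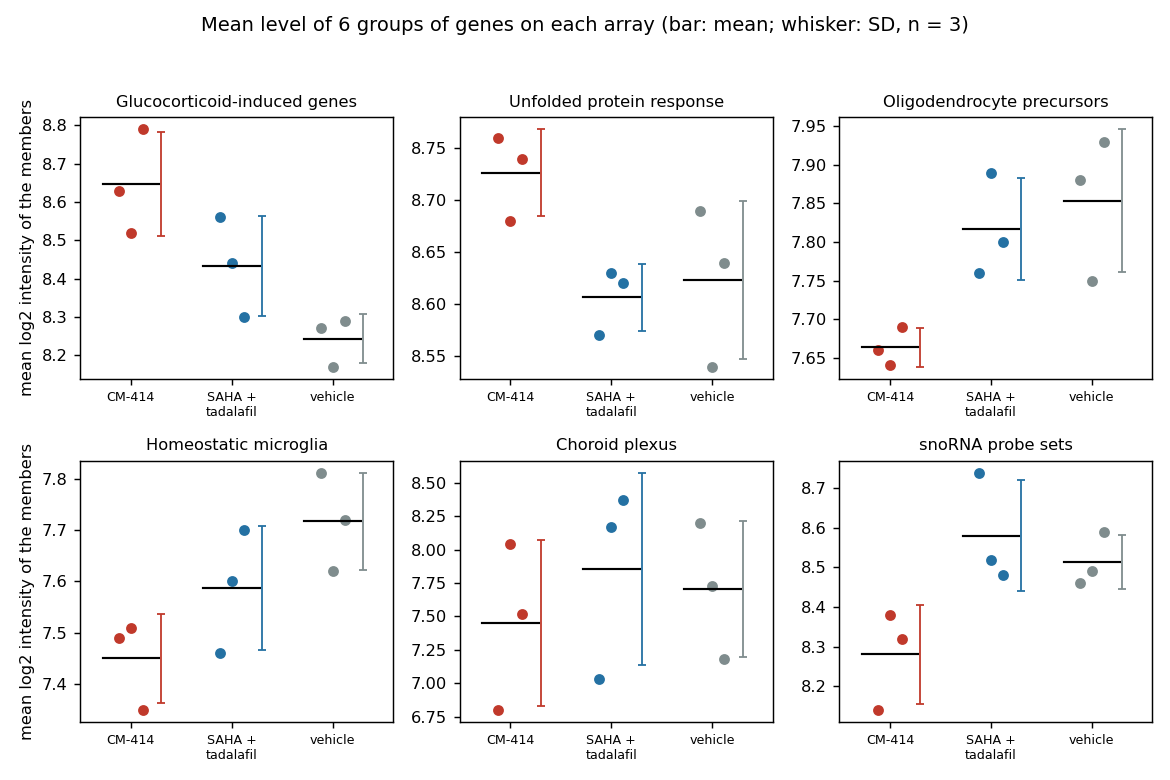
Mean log2 intensity (vertical axis) of the members of 5 gene lists and of the snoRNA probe sets on each array, with bars at the group mean and whiskers of 1 SD (n = 3). The unfolded protein response, oligodendrocyte precursor and snoRNA means do not overlap between CM-414 and SAHA with tadalafil, whereas the choroid plexus points of each group range over more than the distance between the groups.

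The other large falls with CM-414 included secreted, lipid-handling and biosynthetic genes. Il33, an alarmin cytokine held in nuclei of astrocytes and oligodendrocytes, read 8.37, 8.46 and 8.34 with CM-414 and 8.77, 9.07 and 8.98 with SAHA and tadalafil (log2 fold change -0.55, standard error 0.12), and was called in every alternative. Phgdh, the first enzyme of serine synthesis and mainly astrocytic in brain, read 6.64, 6.69 and 7.20 against 7.55, 7.34 and 7.39 (-0.59, standard error 0.16). It was not called without CM-414 replicate 1 or 2 or SAHA and tadalafil replicate 1. Its partners in serine synthesis, Psat1 and Psph, had 0.07 and -0.02. Bgn (biglycan), a proteoglycan of vessels and meninges, read 8.81, 8.48 and 8.88 against 9.20, 9.46 and 9.30 (-0.60, standard error 0.15), in the same direction as the meningeal list above, whose part in this result was not tested. Pltp, which transfers phospholipids between lipoproteins, had -0.53, the GTPase Rhog -0.56 and Fxyd7, a regulator of the sodium pump in brain, -0.51. The Pltp and Rhog calls were lost without CM-414 replicate 1 or SAHA and tadalafil replicate 2, that of Rhog also without CM-414 replicate 2, and that of Fxyd7 without CM-414 replicate 2 or 3 or SAHA and tadalafil replicate 1 or 3.

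Probe sets of the same gene did not always move together. Cst3 (cystatin C), a protease inhibitor very abundant in microglia and astrocytes, was called on its dimmer probe set, with 8.49, 8.50 and 8.22 for CM-414 and 9.78, 9.23 and 9.31 for SAHA and tadalafil (log2 fold change -1.04, standard error 0.28). The brighter one had -0.26 (standard error 0.09), and the call was lost without CM-414 replicate 3 or SAHA and tadalafil replicate 1. Eif4a2, a helicase of translation initiation whose introns host small nucleolar RNAs, was called at -0.55 on the dimmest of 3 probe sets, while the next had -0.53 and the brightest 0.19. Adgrl3, an adhesion receptor of synapses, was called at -0.50 on the dimmer of 2, and the brighter had -0.07. A call on 1 probe set does not settle the level of the whole messenger. Bgn (-0.13), Fam107a (0.30) and Kansl2 (0.11) each had a dimmer probe set that was not called.

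Small nucleolar RNAs (snoRNAs) had the lowest median of the gene families counted by name. They guide chemical modification of ribosomal RNA and are mostly cut from introns of host genes. Of 75 probe sets named for Snora or Snord genes, 4 were called lower and 0 higher (5.33%, beside 0.49% of all probe sets called lower), and 68 were negative, the median being -0.279. In 34 of the 75 (45.3%) every CM-414 array lay below every SAHA and tadalafil array and in 0 the reverse, where 5.7% of all probe sets separated downwards and 15.7% in either direction. Snora28 read 8.80, 9.03 and 8.89 with CM-414 and 9.79, 9.50 and 9.48 with SAHA and tadalafil (log2 fold change -0.68, standard error 0.19). It was not called without CM-414 replicate 1 or 3 or SAHA and tadalafil replicate 1. The others called were Snord123 (-0.44), Snord73a (-0.47) and Snord66 (-0.42). Rnu3a, a gene of the U3 RNA that processes ribosomal precursors, read 5.82, 5.69 and 5.37 against 6.79, 6.30 and 6.23 (-0.81, standard error 0.25). Its call was lost with the replicate block and without CM-414 replicate 2 or 3 or SAHA and tadalafil replicate 1 or 2.

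Averaged over the 75 probe sets, the snoRNA level was 8.14, 8.38 and 8.32 with CM-414, 8.74, 8.52 and 8.48 with SAHA and tadalafil, and 8.46, 8.49 and 8.59 with vehicle. The CM-414 arrays were lower than these 6 others, but 2 of the 3 CM-695 arrays, at 8.32, 8.30 and 8.55, lay within the range of CM-414. The median was -0.237 without SAHA and tadalafil replicate 1, -0.214 without CM-414 replicate 1, and -0.286 and -0.296 after centring and repeated quantile normalization. Ribosomal protein genes, counted the same way by their names (Rpl or Rps), had 77 of 124 probe sets negative and a median of -0.069. Of these 20 separated downwards (16.1%, beside 5.7% of all probe sets), and 1 was called, the dimmer of the 2 probe sets of Rps20 (-0.56). The 30 ribosomal protein genes of the list, by their brightest probe sets, had a median of 0.01 with 0 called.

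MicroRNA genes supplied the smallest p of the comparison. Mir3962 read 5.42, 5.58 and 5.62 with CM-414 and 6.27, 6.15 and 6.19 with SAHA and tadalafil, while vehicle lay between them at 5.85, 5.80 and 5.84. The 3 groups did not overlap. CM-414 was lower by a log2 fold change of -0.66, with a standard error of 0.10 and, in limma, an adjusted p of 0.485. Mir494, from the large imprinted microRNA cluster of chromosome 12, had 6.96, 7.14 and 6.99 against 6.62, 6.40 and 6.65 (0.47, standard error 0.13), and was not called without CM-414 replicate 2 or SAHA and tadalafil replicate 2. Mir551b (-0.33), Mir129-1 (-0.47) and Mir1955 (0.37) were also called, for 5 of 385 microRNA probe sets (1.3%), near the 1.18% of all probe sets. These probe sets lie on the hairpin genes and do not measure the mature microRNAs. The mature sequences listed in RefSeq (GRCm38.p6) for the 5 genes are shown so that their target-recognizing seeds, bases 2 to 8 in capitals, can be compared.
mmu-miR-3962 (chr1:194822035-194822054, plus strand): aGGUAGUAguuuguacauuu
mmu-miR-494-5p (chr12:109715334-109715355, plus strand): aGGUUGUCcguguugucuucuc
mmu-miR-494-3p (chr12:109715367-109715388, plus strand): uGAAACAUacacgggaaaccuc
mmu-miR-551b-5p (chr3:29416840-29416862, plus strand): gAAAUCAAgcuugggugagaccu
mmu-miR-551b-3p (chr3:29416879-29416899, plus strand): gCGACCCAuacuugguuucag
mmu-miR-129-5p (chr6:29022624-29022644, plus strand): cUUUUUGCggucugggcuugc
mmu-miR-1955-5p (chr2:92191994-92192018, plus strand): aGUCCCAGgaugcacugcagcuuuu
No 2 of these 7 share a seed.

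Among dim probe sets, with a mean under a log2 value of 6, the leading calls beside Mir3962 were odorant receptors, a member of the Pate family, a zinc finger gene and a proteoglycan. Olfr490, an odorant receptor, read 5.09, 5.28 and 5.07 with CM-414 and 4.46, 4.47 and 4.70 with SAHA and tadalafil (log2 fold change 0.60, standard error 0.11, adjusted p = 0.651 in limma). Olfr448 (0.60) and Pate6 (0.58) were the other leading rises of this kind. Of 463 odorant receptor probe sets, 6 were called higher and 0 lower (1.3%). Over all probe sets 1.18% were called in either direction, 0.694% higher and 0.49% lower. Zfp97, a zinc finger gene, had 4.80, 4.41 and 4.39 against 4.80, 5.79 and 5.82, with the first replicates of both groups at the same rounded level (-0.93, standard error 0.26). Omd (osteomodulin), a proteoglycan of bone and meninges, had 4.25, 4.26 and 4.18 against 5.55, 5.16 and 4.41, a log2 fold change of -0.81 with the nearest arrays of the groups at 4.26 and 4.41. Of these dim genes Olfr448, Pate6, Zfp97 and Omd each lost the call in 5 of 16 alternatives.

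The transcripts of the class I HDACs, Hdac6 and Pde5a were not called. Log2 fold changes, with 95% intervals, were -0.07 for Hdac1 (-0.42 to 0.28), -0.00 for Hdac2 (-0.18 to 0.18), 0.04 for Hdac3 (-0.18 to 0.26), -0.05 for Hdac6 (-0.25 to 0.15) and -0.01 for Hdac8 (-0.30 to 0.29). Pde5a had -0.05 (-0.28 to 0.18). Pde9a, a phosphodiesterase of cyclic GMP that neither treatment is labelled to target, averaged 8.14 ± 0.06 with CM-414 and 7.88 ± 0.12 with SAHA and tadalafil (SD, n = 3 each). The groups did not overlap, but the log2 fold change of 0.26 (0.07 to 0.45) fell just short of the threshold and was called in 4 of 17 alternatives, 1 of them without SAHA and tadalafil replicate 2. None of the 11 HDAC genes (median -0.01) or 19 phosphodiesterase genes (median 0.01) was called. In 3 of the 11 HDAC genes (27.3%) the groups separated downwards and in 0 upwards. Over all genes 17.2% separated in either direction and 12.4% upwards, and 5.7% of all probe sets separated downwards. The HDAC median was -0.117 without SAHA and tadalafil replicate 1, beside -0.006 with all arrays. Of these intervals, that of Hdac1 reaches the median size of the called differences, 0.42, while that of Hdac2 stays within 0.18 on either side of 0.

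Genes that make or clear amyloid-β were evenly divided, with 10 positive and 11 negative of 21, a median of -0.01 and 0 called on their brightest probe sets. App had 0.11, Psenen, a subunit of γ-secretase, -0.18 and Mme (neprilysin), which degrades the peptide, 0.19. Bace1, the β-secretase, gave opposite signs on its 2 probe sets. The brighter had 0.14 (standard error 0.09), while the slightly dimmer was called, at 8.54, 8.47 and 8.50 with CM-414 and 8.96, 8.75 and 8.72 with SAHA and tadalafil (-0.31, standard error 0.09). Bace1 lies outside the naming rule and is given because its values were seen to disagree.

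The vehicle mean lay between the 2 treatment means in 147 of the 206 called genes, outside them on the SAHA and tadalafil side in 51 and on the CM-414 side in 8. These genes were selected for a difference between the 2 treatments, which by itself favours a vehicle mean between them. No share over all genes was counted for these positions, so the counts are descriptions. The vehicle mean was nearer SAHA and tadalafil in 160 (77.7%) and nearer CM-414 in 46, where it was nearer SAHA and tadalafil in 57.7% of all genes. For the 143 genes higher with CM-414, the median log2 fold change from vehicle was 0.27 with CM-414 and -0.07 with SAHA and tadalafil. For the 63 lower ones it was -0.29 and 0.08. The vehicle means of Pdk4, Fbln5, Cry1, Opalin and Olig1 were nearer SAHA and tadalafil. That of Hspa5 was nearer CM-414, as was that of Ccnd2, a cyclin of neural precursors, which read 9.05, 9.03 and 8.97 with CM-414, 8.69, 8.46 and 8.70 with SAHA and tadalafil, and 8.99, 8.95 and 8.93 with vehicle. Ccnd2 was named for this after its values were seen. The fold changes of both treatments from vehicle use the same 3 vehicle arrays, so they are not independent of each other. Their medians come from genes selected for the difference between the treatments.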

How the data were processed

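The deposited values are log2 intensities of 41345 probe sets on 12 arrays, which the authors obtained by RMA (version not given here). On these values 4 group means were fitted with limma (version 3.58.1, run in R 4.3.3), its moderated test was two-sided, and the contrast was CM-414 minus SAHA and tadalafil. Probe sets had to exceed log2 4 (16 on the linear scale) on all 6 arrays, and Benjamini-Hochberg adjustment ran over the 35309 kept. Per the labels, the arrays of a group are biological replicates. With 3 arrays in each group the median standard error was 0.13, which sets the precision.

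The platform annotation gives 1 gene symbol to 23521 probe sets and several to 1820, and does not list 16004. Genes in lists are represented by the probe set with the highest mean. Named genes were the 12 largest rises and 12 largest falls with 1 non-systematic symbol, an unadjusted p under 0.01, no overlap between the groups and a mean of at least 6, the 3 largest each way below 6, up to 4 called members per list, and 7 genes of HDACs and cyclic GMP phosphodiesterases (Hdac1, Hdac2, Hdac3, Hdac6, Hdac8, Pde5a and Pde9a). Further list members are given as examples picked with their values in view. The comparison and the lists were chosen with earlier results of these data known. The fit was tested on simulated data. Promoter and microRNA sequences came from RefSeq (GRCm38.p6), and matplotlib 3.10.9 under Python 3.11.15 made the figures. No genome build is stated for the probe sets, so genes carry no coordinates. Alternatives covered the arrays fitted, the filter, the normalization, the variance model and leaving out each array.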

Additional observations from a re-analysis of the deposited data

How the results depend on the processing

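Under all 17 alternatives 0 probe sets had an adjusted p under 0.05 in limma, with the smallest adjusted p between 0.0566 (without SAHA and tadalafil replicate 3) and 0.995. The count of 418 at an unadjusted p under 0.01 became 906 with array weights (528 higher, 378 lower) and 928 without the arrays that stand apart (500 higher, 428 lower). It was 585 with the 6 arrays only, of which 279 were lower. Leaving out 1 array gave between 275 (without CM-414 replicate 1) and 423, with 151 to 253 higher and 124 to 186 lower. Centring the arrays changed the share of higher calls to 50.6%, from 58.6%. The replicate block gave 352 (201 higher, 151 lower). Deviations of same-numbered CM-414 and SAHA and tadalafil arrays from their group means correlated at -0.0211, 0.161 and -0.0604. Pairs with unlike numbers ranged from -0.156 to 0.18. The labels name no pairing, and a batch shared by number was not tested. All 42 called named probe sets kept their sign, and 11 were called in every alternative that tested them (Noxred1, Fbln5, Ccn3, Ccdc185, Bgn, Il33, Eif4a2, Adgrl3, Olfr490, Mir3962 and Cry1). Pdk4 was lost only without SAHA and tadalafil replicate 3 and Olig1 only without replicate 2 of that group, while Timp2 was called in 6 alternatives and Cdh5 and Mfsd2a in 7 each.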

Other observations

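Groups of genes that no list covered were looked at after the called genes had been read, so their counts are descriptions. Splicing regulators of the Clk, Srsf, Tra2 and Hnrnp families had positive fold changes for 29 of 33 genes (median 0.17), with 4 called higher. In 18 of the 33 the groups separated upwards and in 0 downwards. Over all genes 0.713% were called higher, 12.4% separated upwards and 59.4% were positive. The called ones were Clk1 and Clk4, kinases that release splicing factors from nuclear speckles, and the splicing factors Tra2a and Hnrnph1. Clk1 read 9.08, 8.96 and 9.18 with CM-414 and 8.76, 8.71 and 8.71 with SAHA and tadalafil (log2 fold change 0.35, standard error 0.10, adjusted p = 0.766 in limma). Hnrnph1 read 9.88, 9.69 and 9.77 against 9.16, 9.39 and 9.47 (0.44, standard error 0.14). The mean of the group was 9.48, 9.41 and 9.46 with CM-414 and 9.25, 9.29 and 9.32 with SAHA and tadalafil, and the median stayed positive after centring (0.16) and repeated quantile normalization (0.14).

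Tubulin genes lay on the other side. All 8 β-tubulin chains measured had negative fold changes (median -0.22), and 2 were called lower, where 0.314% of all genes were called lower and 59.4% were positive. Tubb3, the neuronal chain, read 9.33, 9.07 and 9.11 with CM-414, against 9.65, 9.51 and 9.65 with SAHA and tadalafil and 9.50, 9.66 and 9.69 with vehicle (log2 fold change -0.43, standard error 0.09, adjusted p = 0.766 in limma). Tubb5 read 11.04, 11.13 and 11.04 against 11.29, 11.38 and 11.31 (-0.26, standard error 0.07). The 4 α-tubulin chains measured were also negative (median -0.26, 0 called). These chains are close in sequence, so probe sets may share signal, and both medians stayed negative after centring (-0.23 and -0.27) and repeated quantile normalization (-0.24 and -0.28).

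Of the 4 Rag GTPases measured, which hold mTORC1 at the lysosome, Rragb and Rragc were called higher, beside 0.713% of all genes. Rraga had 0.22 (standard error 0.09) and Rragd 0.30 (standard error 0.14), neither called. Rragb read 9.59, 9.63 and 9.59 against 9.27, 9.35 and 9.27 (0.31, standard error 0.08), and Rragc 9.44, 9.31 and 9.30 against 8.94, 9.06 and 9.06 (0.33, standard error 0.09). Lgals1 (galectin-1) was lower, with 7.58, 7.62 and 7.51 against 7.95, 8.07 and 8.18 (-0.50, standard error 0.11). Fabp5, a fatty acid carrier of glia and endothelium, was called lower at -0.42 on 2 of its 4 probe sets, while its brightest had -0.06.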
